A study of Mus musculus with 69 samples.

Results

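The myeloid C-type lectin receptors are a small set of surface proteins that phagocytes use to sense sugars and glycolipids of microbes and material released from damaged cells. The set lists 5 genes, Clec4d, Clec4e, Clec4n, Clec5a and Clec7a, and 4 of the 5 were measured. Members were found by matching the transcript accession of each array probe to a RefSeq gene symbol. Clec4d, Clec4e and Clec4n had 1 probe each and Clec5a had 3, 6 probes in all, among 41174 probes and 17628 genes tested on 69 arrays. No probe was matched to Clec7a, which is not analysed here.

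Each array held RNA from a frozen piece of the lung of 1 female C57BL/6 mouse, which had received a single intratracheal instillation of vehicle or of titanium dioxide nanoparticles. The mice arrived at 5 to 7 weeks of age and had 1 to 3 weeks to acclimatise, and all groups, controls included, received 2% serum in water, which carried the particles. The particles were NRCWE-001, described as uncharged, and NRCWE-002, described as positively charged, each at 18, 54 or 162 µg per mouse, and lungs were taken on day 1 or day 28. There were 5 mice in each of 13 groups and 4 in the vehicle group of day 28. The lung sample was labelled with one dye and a commercial pool of mouse RNA with the other, so each level below is a log2 ratio of lung over that reference and each change is a difference of log2 ratios. A negative level says only that the pool gave the brighter signal, and levels of different genes cannot be set against each other.

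The receptors bind their ligands outside the cell and pass the signal on through partner proteins. Clec4e (Mincle), Clec4d (MCL) and Clec4n (Dectin-2) pair with the Fc receptor gamma chain, encoded by Fcer1g, whereas Clec5a (MDL-1) pairs with the adaptors encoded by Tyrobp and Hcst, and these adaptors recruit the kinase Syk. Signalling through Syk and Card9 leads to cytokine and chemokine production. In the lung the receptors are known from macrophages, monocytes and neutrophils, and whole lung holds these among many other cells, so more cells of a type and more transcript per cell cannot be told apart in these data.

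Clec4n, Clec4d and Clec4e lie next to each other, in that order, on chromosome 6, and Clec5a and Clec7a lie elsewhere on the same chromosome. The 250 bases before the transcription start are shown for the measured members that had an entry in the RefSeq promoter table (build GRCm38.p6), to let the flanking sequence of genes with a shared pattern be compared. The stretches are chr6:123261857-123262106 on the plus strand for Clec4d, chr6:123289872-123290121 on the minus strand for Clec4e and chr6:40585806-40586055 on the minus strand for Clec5a, each written 5′ to 3′ in the direction of the gene. Capitals mark GAGGAA or its reverse complement, the core of the PU box bound by the myeloid factor PU.1, a motif chosen after the sequences had been seen.
Clec4d: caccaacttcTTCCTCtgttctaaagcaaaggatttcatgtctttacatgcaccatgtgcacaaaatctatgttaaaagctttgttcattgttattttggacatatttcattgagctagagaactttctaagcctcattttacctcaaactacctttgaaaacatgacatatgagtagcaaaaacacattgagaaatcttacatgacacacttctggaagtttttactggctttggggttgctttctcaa
Clec4e: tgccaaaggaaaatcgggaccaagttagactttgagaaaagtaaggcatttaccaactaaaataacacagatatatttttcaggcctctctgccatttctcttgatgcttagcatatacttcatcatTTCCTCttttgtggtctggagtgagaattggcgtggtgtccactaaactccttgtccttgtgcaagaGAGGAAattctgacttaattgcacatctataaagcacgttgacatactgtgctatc
Clec5a: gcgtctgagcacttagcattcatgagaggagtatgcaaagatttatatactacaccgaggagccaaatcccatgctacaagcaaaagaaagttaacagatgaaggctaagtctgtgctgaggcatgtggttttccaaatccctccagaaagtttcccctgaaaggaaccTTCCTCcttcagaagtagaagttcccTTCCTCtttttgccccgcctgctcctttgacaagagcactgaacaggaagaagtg
The Clec4d stretch held 1 such match, starting 240 bases before the start, while Clec4e held 2, at 123 and 56 bases, and Clec5a held 2, at 81 and 55 bases. Over all 32851 promoters of the table, 23.3% held the motif on either strand in the same 250 bases. An AP-1 motif, TGANTCA, was in none of the 3 stretches and in 6.75% of all promoters. A C/EBP motif, TTGCNNAA, was in Clec4e only among the 3 and in 9.56% of all promoters, and the NF-kB motif was in none of the 3 and in 7.25% of all. A match is a stretch of letters and not a measured binding site. Clec4n had no entry in the promoter table.

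All 4 measured receptors had higher mean levels at 162 µg than in the vehicle group of the same day, for both particles and on both days, with changes from 0.29 to 1.37, except that Clec4n with NRCWE-002 on day 28 turned to -0.28 when the scanner software's processed signals were used. Only Clec4d passed the threshold (adjusted p below 0.05) against the vehicle, on day 1 and with both particles, in the fit without slide. With slide as a random block Clec4e and Clec5a passed it as well with NRCWE-001. With only the compared groups fitted, Clec4d and Clec4e passed it with NRCWE-002 and no receptor did with NRCWE-001. The changes were fitted with limma over all 17628 genes, with Benjamini-Hochberg adjustment in each comparison. Between the vehicle groups of day 28 and day 1 no receptor was called, with changes from -0.13 to 0.01, limma adjusted p of at least 0.975 and 0 of 4 at an unadjusted p under 0.05, and 0% of all genes were called there.

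**Figure D1:**
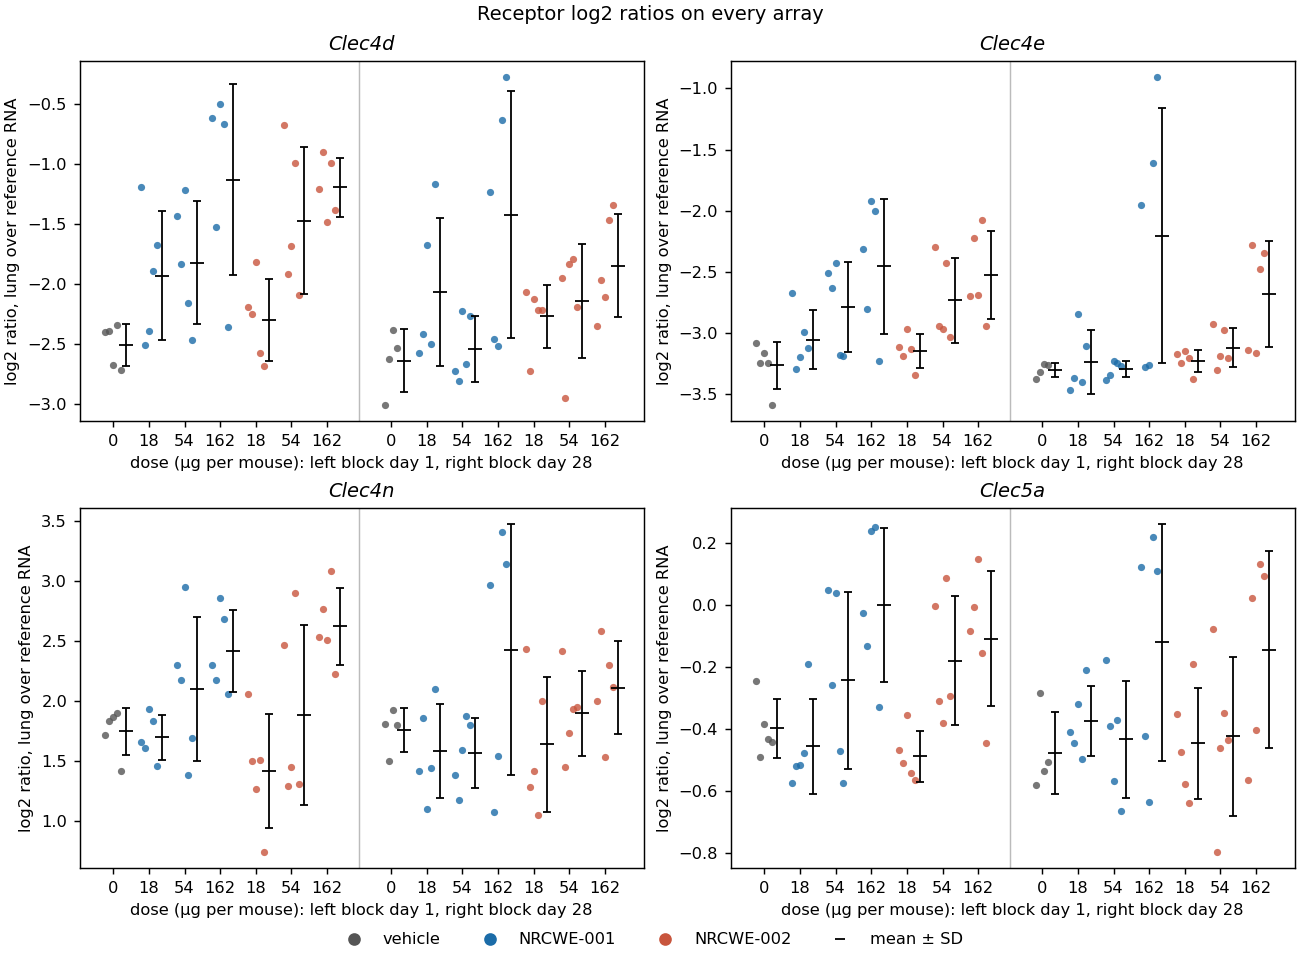
Log2 ratio of lung over reference RNA (y axis) for each receptor, 1 panel per gene, with 1 point per array and the mean ± SD of each group beside it. The x axis gives the dose in µg per mouse, day 1 to the left of the line and day 28 to the right. Vehicle arrays lie in a narrow band on both days, and at 162 µg of NRCWE-001 on day 28 the arrays of each gene lie far apart.

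Clec4d, which forms complexes with Clec4e, showed the clearest change on day 1. The 5 vehicle arrays had levels of -2.40, -2.39, -2.67, -2.34 and -2.71. After 162 µg of NRCWE-001 the levels were -0.62, -1.52, -0.49, -0.67 and -2.36, and after 162 µg of NRCWE-002 they were -1.20, -0.90, -1.48, -0.99 and -1.38. Every NRCWE-002 array thus lay above every vehicle array, whereas 1 of the NRCWE-001 arrays, replicate 5, lay within the vehicle range. Clec4d rose by 1.37 ± 0.33 (SE, n = 5 against 5, limma adjusted p = 0.0246), a 2.59-fold change, with NRCWE-001 and by 1.31 ± 0.33 (limma adjusted p = 0.0346), a 2.48-fold change, with NRCWE-002. It was the only 1 of the 4 receptors called with either particle, beside 0.624% of all genes called with NRCWE-001 and 0.590% with NRCWE-002.

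The Clec4d calls lay near the threshold. With 1 array left out at a time, the change for NRCWE-001 stayed between 1.21 and 1.68, but the limma adjusted p ranged from 0.00083 to 0.170 and the call was lost in 7 of 10 fits, without vehicle replicates 1, 2, 3 or 5 or exposed replicates 1, 3 or 4. For NRCWE-002 the change stayed between 1.24 and 1.38, with an adjusted p from 0.0271 to 0.127, and the call was lost in 9 of 10, all but the fit without exposed replicate 5. Slides, each holding up to 4 arrays, accounted for 42.5% of the spread of Clec4d within groups. With slide as a random block the changes were 1.44 for NRCWE-001 (limma adjusted p = 0.000424) and 1.08 for NRCWE-002 (limma adjusted p = 0.0271), and with slide as a fixed term the NRCWE-002 change was 1.00 and lost its call (limma adjusted p = 0.103). On slides that held a vehicle array, the difference of the exposed array from it was positive in 3 of 3 for NRCWE-001, from 0.87 to 2.18, and in 2 of 2 for NRCWE-002, from 1.14 to 1.23.

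At the lower doses Clec4d took values between those of vehicle and 162 µg on day 1. Group means ± SD were -1.93 ± 0.54 and -1.82 ± 0.51 after 18 and 54 µg of NRCWE-001, and -2.30 ± 0.34 and -1.47 ± 0.61 after 18 and 54 µg of NRCWE-002, against -2.50 ± 0.17 in the vehicle group and -1.13 ± 0.80 and -1.19 ± 0.25 at 162 µg. In the order of the 7 means, neighbours lay closer together than the SD of the wider spread group of the pair. All 5 arrays of 54 µg NRCWE-002 exceeded every vehicle array for Clec4d and for Clec4e, 2 of 4 receptors beside 1.80% of all genes. The changes of 1.03 and 0.53 did not pass the threshold in the fit without slide (limma adjusted p = 0.341 and 0.702). The moderated F-test over the doses called Clec4d for NRCWE-002 (F = 7.60, limma adjusted p = 0.0351), a call lost in 14 of 20 fits with 1 array left out, and no receptor for NRCWE-001, where Clec4d had F = 6.00 (limma adjusted p = 0.0944). With slide as a random block the NRCWE-001 test called Clec4d, Clec4e and Clec5a (limma adjusted p = 0.00151, 0.0325 and 0.0206), and with slide as a fixed term it called Clec4d alone (limma adjusted p = 0.00379). These tests called 0.771% of all genes for NRCWE-002 and 0.879% for NRCWE-001.

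**Figure D2:**
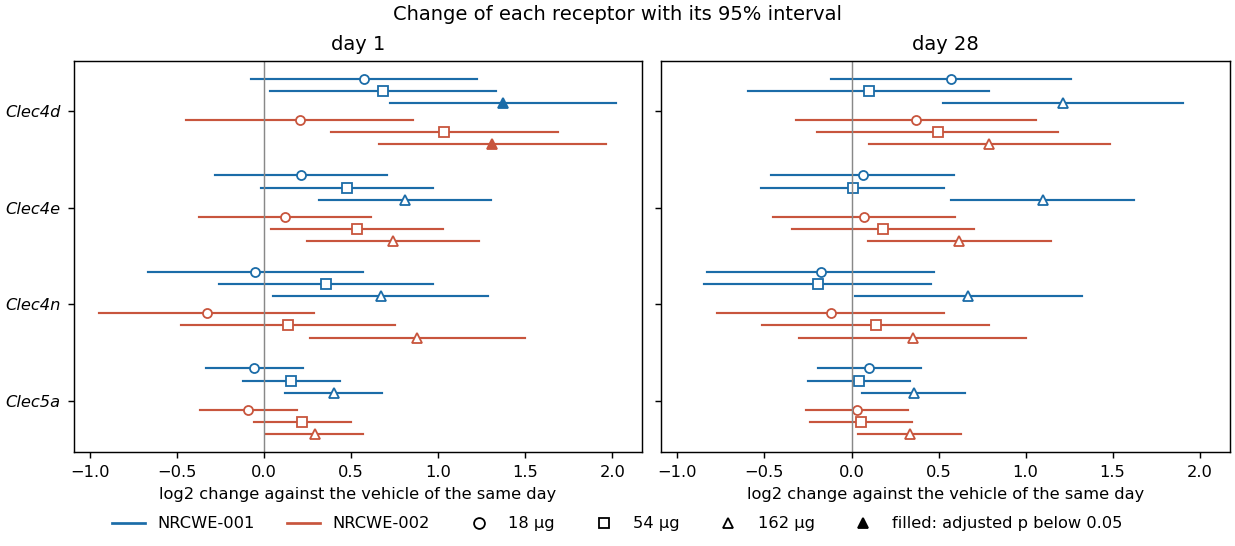
Log2 change of each receptor against the vehicle of the same day (x axis) with its 95% interval, by dose and particle, day 1 on the left and day 28 on the right. Filled symbols mark the changes past the threshold, which are those of Clec4d at 162 µg on day 1, 1.37 and 1.31, and the other symbols are open.

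Clec4e, which binds mycobacterial glycolipid and a nuclear protein released by dying cells, had vehicle levels of -3.08, -3.25, -3.17, -3.24 and -3.59 on day 1. The levels after 162 µg of NRCWE-001 were -2.31, -2.81, -1.92, -2.01 and -3.23, and those after 162 µg of NRCWE-002 were -2.70, -2.22, -2.69, -2.08 and -2.94. Again all NRCWE-002 arrays and 4 of 5 NRCWE-001 arrays exceeded the vehicle range, and the exception was the same NRCWE-001 array as for Clec4d. The changes were 0.81 ± 0.25 (limma adjusted p = 0.134) and 0.74 ± 0.25 (limma adjusted p = 0.179), so neither was called in the fit without slide. With slide in the fit Clec4e was called for NRCWE-001, with a change of 0.83 as a fixed term (limma adjusted p = 0.0452) and 0.82 as a random block (limma adjusted p = 0.0198), and it was not called for NRCWE-002 (limma adjusted p = 0.336 and 0.162). With only the compared groups fitted, Clec4e was called for NRCWE-002 (limma adjusted p = 0.0143) and not for NRCWE-001. Differences from a vehicle array on the same slide were positive in 3 of 3 for NRCWE-001, from 0.44 to 1.25, and in 2 of 2 for NRCWE-002, from 0.54 to 0.90.

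Clec4n, a receptor for fungal mannans, had vehicle levels from 1.41 to 1.90 on day 1. Its levels ran from 2.05 to 2.86 after 162 µg of NRCWE-001 and from 2.23 to 3.09 after 162 µg of NRCWE-002, so neither group overlapped the vehicle arrays. The changes of 0.67 ± 0.31 (limma adjusted p = 0.585) and 0.88 ± 0.31 (limma adjusted p = 0.207) did not pass the threshold, nor did they with slide as a random block (limma adjusted p = 0.0973 and 0.189). With NRCWE-002 a complete separation from vehicle held for 3 of 4 receptors, Clec4d, Clec4e and Clec4n, beside 3.00% of all genes, and with NRCWE-001 it held for Clec4n alone, beside 1.70% of all genes.

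Clec5a, which couples to the Tyrobp adaptor, was measured by 3 probes that did not behave alike. One probe was well above background on all 69 arrays, while the other probes reached that level on 15 and 10 arrays. The median of the 3 changed by 0.40 ± 0.14 with 162 µg of NRCWE-001 and 0.29 ± 0.14 with NRCWE-002 on day 1 (limma adjusted p = 0.258 and 0.503). With slide as a random block the NRCWE-001 change was 0.44 and was called (limma adjusted p = 0.0397), and with slide as a fixed term it was 0.46 and was not (limma adjusted p = 0.0690). The bright probe alone had vehicle levels from -0.84 to -0.45, and it read 0.33, 0.17, 0.89, 0.89 and -0.71 after NRCWE-001 and 0.13, 0.64, 0.34, 0.55 and -0.61 after NRCWE-002. In each exposed group 4 arrays lay above the vehicle range and 1, replicate 5, lay within it. The changes of that probe were 0.91 ± 0.34 and 0.80 ± 0.34 in a fit over all probes (limma adjusted p = 0.453 and 0.469), larger than those of the median but not called either.

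On day 28 the mean changes were still positive, but the arrays of the NRCWE-001 group lay far apart. After 162 µg of NRCWE-001 the Clec4d levels were -1.23, -2.46, -2.51, -0.63 and -0.28, against -3.01, -2.62, -2.38 and -2.53 in the vehicle group. The Clec4e levels of the same arrays, in the same order, were -1.96, -3.28, -3.26, -1.61 and -0.91, against vehicle levels from -3.37 to -3.25. The Clec4n levels were 2.97, 1.07, 1.54, 3.42 and 3.14, against vehicle levels of at most 1.92. For each of these 3 genes, and for Clec5a, replicates 1, 4 and 5 were above all vehicle arrays and replicates 2 and 3 were not, so no receptor separated the groups, where 0.851% of all genes did.

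None of the 4 receptors was called against vehicle on day 28 for NRCWE-001, where 0.0511% of all genes were, although all 4 had an unadjusted limma p under 0.05, as had 7.34% of all genes. The change was 1.097 ± 0.26 for Clec4e (n = 5 against 4, limma adjusted p = 0.0721) and 1.22 ± 0.34 for Clec4d (limma adjusted p = 0.216), and 0.67 ± 0.33 and 0.36 ± 0.15 for Clec4n and Clec5a (limma adjusted p = 0.665 and 0.514). The Clec5a value is the median of 3 probes. Its bright probe alone changed by 1.26 ± 0.36 in a fit over all probes (limma adjusted p = 0.310). Leaving out replicate 2 or replicate 3 of the exposed group brought the count of receptors called to 2, Clec4d and Clec4e. With another single array left out, the limma adjusted p reached 0.942 for Clec4d and 0.772 for Clec4e. With slide as a random block it was 0.331 for Clec4d and 0.168 for Clec4e. With slide as a fixed term it was 0.999 for both. The F-test over the doses called Clec4e (F = 9.27, limma adjusted p = 0.0130), 1 of 4 receptors beside 0.686% of all genes, and that call was lost when replicate 1, 4 or 5 was left out, with the adjusted p then 0.0714, 0.179 and 0.338. It was also lost with an ordinary F-test per gene in place of limma's moderated test (F = 4.55, adjusted p = 0.407 across all genes).

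After 162 µg of NRCWE-002 on day 28 the receptors were spread less widely. The Clec4d levels were -2.35, -1.96, -2.11, -1.47 and -1.34, and the Clec4e levels were -3.14, -2.28, -3.16, -2.48 and -2.35. Every one of these arrays exceeded every vehicle array for both genes, although the lowest exceeded the highest vehicle array by little. This separation held for 2 of 4 receptors beside 0.511% of all genes. Differences from a vehicle array on the same slide were 0.43 to 0.66 for Clec4d and 0.10 to 0.23 for Clec4e, positive in 2 of 2 for each. For Clec5a they were 0.02 to 0.10, and for Clec4n 1 of 2 was positive, from -0.26 to 0.20. The exposed arrays in these differences were replicates 1 and 3, the lowest of the group for every receptor. Replicates 2, 4 and 5, the highest, had no vehicle array on their slide. The changes were 0.79 ± 0.34 for Clec4d, 0.62 ± 0.26 for Clec4e, 0.35 ± 0.33 for Clec4n and 0.33 ± 0.15 for Clec5a, with limma adjusted p from 0.584 to 0.860. The bright Clec5a probe alone changed by 0.88 ± 0.36 in a fit over all probes (limma adjusted p = 0.640). None of the 4 was called, beside 0.00567% of all genes, and 3 of the 4 had an unadjusted limma p under 0.05, as had 7.27% of all genes. The F-test over the doses called no receptor and 0% of all genes, with 0 of 4 receptors at an unadjusted p under 0.05.

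**Figure D3:**
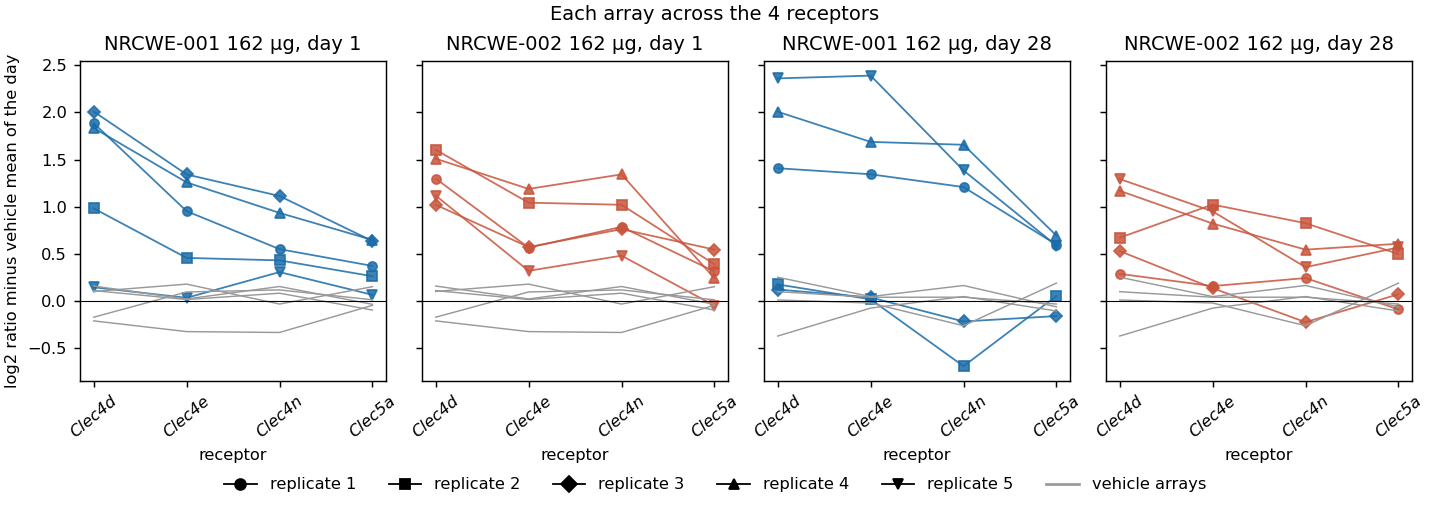
Log2 ratio of each array minus the mean of the vehicle group of that day (y axis) across the receptors (x axis), with 1 line per array for the 4 groups that received 162 µg and grey lines for the vehicle arrays. In the third panel replicates 1, 4 and 5 lie above the vehicle lines for every receptor, while replicates 2 and 3 lie at or below the highest vehicle line for every receptor.

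The receptors moved together from array to array. Over the 69 deviations from the group means, Pearson correlations between pairs of receptors were 0.65 to 0.86, and the highest was that of Clec4d with Clec4e. Over the 14 group means they were 0.83 to 0.92. These are descriptions, because receptors on 1 array share the lung sample, the labelling and the slide. Differences between slides made up 31.2%, 47.4% and 22.9% of the spread within groups for Clec4e, Clec4n and Clec5a. Part of each share arises without any slide effect.

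Other genes had patterns like those of the receptors. Over the 14 group means the most alike genes were Tgfbi, Ch25h and Ccl7 for Clec4d (r = 0.94 each), Il1rn, Acod1 and Vcpkmt for Clec4e (r = 0.96 each), Slc16a6, Vnn1 and Cxcl16 for Clec4n (r from 0.93 to 0.95), and Ccl3, Ccl7 and Vnn1 for Clec5a (r = 0.96 each). Over the 69 deviations from group means they were Ccl3, Cd300lf and Gpr65 for Clec4d, Cd300lf, Ccl3 and Ccl2 for Clec4e, Bcl2a1b, Ms4a6c and Bcl2a1c for Clec4n, and Tnfrsf9, Ccl7 and Ms4a6d for Clec5a, with r between 0.76 and 0.88.

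At 18 and 54 µg no receptor was called against vehicle on either day in 8 comparisons in the fit without slide, and 25 of 32 changes were above 0, within a range from -0.33 to 1.03. With slide in the fit, or with only the compared groups fitted, 1 receptor was called at 54 µg of NRCWE-002 on day 1. Of the 32 changes, 3 had an unadjusted limma p under 0.05, those of Clec4d at 54 µg of either particle and of Clec4e at 54 µg of NRCWE-002, all on day 1, where 4.99% of all genes had such a p at 54 µg of NRCWE-001 and 6.75% at 54 µg of NRCWE-002. At 18 µg 10 of 16 changes were above 0 and at 54 µg 15 of 16. The share of all genes called was 0% at 18 and 54 µg of NRCWE-001 and 0% at 18 µg of NRCWE-002 on day 1, 0.113% at 54 µg of NRCWE-002 on day 1, 0.193% and 0.00567% at 18 and 54 µg of NRCWE-001 on day 28, and 0% at both doses of NRCWE-002 on day 28. On day 28 the Clec4e means were -3.24 ± 0.26 and -3.30 ± 0.07 at 18 and 54 µg of NRCWE-001, and -3.23 ± 0.09 and -3.12 ± 0.16 at 18 and 54 µg of NRCWE-002, against -3.30 ± 0.06 in the vehicle group and -2.20 ± 1.04 and -2.68 ± 0.44 at 162 µg. Clec4e means below 162 µg differed from the vehicle mean by at most 0.18 on that day.

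The difference between the highest and the lowest dose was tested directly, without the vehicle. All 16 changes from 18 to 162 µg were positive, from 0.25 to 1.21, with Clec5a taken as the median of its 3 probes. On day 1 Clec4n was called for NRCWE-002, with a change of 1.21 ± 0.31 (limma adjusted p = 0.0285), and its 18 µg mean of 1.41 ± 0.48 lay below the vehicle mean of 1.75 ± 0.20. On day 28 Clec4e was called for NRCWE-001, with a change of 1.03 ± 0.25 (limma adjusted p = 0.0172). These were 1 of 4 receptors each, beside 1.40% and 1.34% of all genes, and no receptor was called for NRCWE-001 on day 1 or NRCWE-002 on day 28, beside 1.13% and 0% of all genes, with 4 and 2 of the 4 at an unadjusted limma p under 0.05, as had 9.76% and 2.27% of all genes. With slide in the fit, as a fixed term or a random block, 2 receptors were called for NRCWE-001 on day 1, Clec4d (limma adjusted p = 0.0277 and 0.0232) and Clec5a (limma adjusted p = 0.0201 and 0.00754). The Clec4n change was 0.48 with slide as a fixed term (limma adjusted p = 0.426) and 0.71 with slide as a random block (limma adjusted p = 0.122), and its call was lost when 1 array was left out in 8 of 10 fits. The Clec4e call was lost in 5 of 10 such fits, and the Clec4e change with slide was 0.97 (limma adjusted p = 0.0178).

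The particles, which differ in surface charge, were compared at 3 matched doses on 2 days, 24 receptor values in 6 comparisons, with p-values adjusted over all genes in each. None of the 24 was called, with limma adjusted p of at least 0.573 and 0 of 24 at an unadjusted p under 0.05. At 162 µg on day 1 NRCWE-002 minus NRCWE-001 was -0.06 for Clec4d (95% interval -0.71 to 0.59), -0.07 for Clec4e (-0.57 to 0.42), 0.21 for Clec4n (-0.40 to 0.83) and -0.11 for Clec5a (-0.39 to 0.17). At 162 µg on day 28 it was -0.42 for Clec4d (-1.08 to 0.23), -0.48 for Clec4e (-0.97 to 0.02), -0.32 for Clec4n (-0.93 to 0.30) and -0.02 for Clec5a (-0.30 to 0.25). The widest of these intervals reached 1.08 below 0, so these values do not show that the particles act alike. The Clec5a values are medians that include its dim probes. Its bright probe alone differed by -0.11 ± 0.34 on day 1 and -0.38 ± 0.34 on day 28 at 162 µg, in a fit over all probes, and was not called. The share of all genes called between the particles was 0.00567%, 0.0964% and 0% at 18, 54 and 162 µg on day 1, and 0.165%, 0.0284% and 0% on day 28.

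The change at 162 µg was also compared between the days. Day 28 minus day 1 was -0.16, 0.29, 0.00 and -0.04 for Clec4d, Clec4e, Clec4n and Clec5a with NRCWE-001, and -0.52, -0.12, -0.53 and 0.04 with NRCWE-002. None of these 8 differences was called and 0 of 8 had an unadjusted p under 0.05, with limma adjusted p of at least 0.921 and 95% intervals within -1.47 and 1.01, and 0% of all genes were called in either comparison. The bright Clec5a probe alone differed by 0.35 ± 0.50 with NRCWE-001 and 0.08 ± 0.50 with NRCWE-002 in a fit over all probes, and was not called.

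Partner genes of the receptors were examined at 162 µg against vehicle. Of 16 listed adaptor and signalling genes 15 were measured, all but Card9, and none was called by limma with either particle on either day, with 0 to 3 of 15 at an unadjusted p under 0.05 in each comparison. Their median change on day 1 was 0.07 with NRCWE-001 and 0.10 with NRCWE-002, beside medians over all genes of 0.00 and 0.01. Fcer1g and Tyrobp, the chains that the receptors pair with, were singled out after their values were seen. The day 1 change was 0.19 ± 0.22 and 0.26 ± 0.22 for Fcer1g (limma adjusted p = 1.00 and 0.847) and 0.06 ± 0.21 and 0.16 ± 0.21 for Tyrobp (limma adjusted p = 1.00 and 0.950). Of 25 other C-type lectins 23 were measured and none was called by limma against vehicle at 162 µg on either day, with 1 to 4 of 23 at an unadjusted p under 0.05 and median changes of -0.05 and -0.03 on day 1. Of 14 products known to be induced through these receptors 13 were measured, and Il1b, a pyrogenic cytokine, rose with both particles on day 1, by 1.76 ± 0.37 (limma adjusted p = 0.00857) and 1.78 ± 0.37 (limma adjusted p = 0.00853), while no other product was called against vehicle on day 1 and none was on day 28. At an unadjusted limma p under 0.05 there were 5 and 6 of 13 on day 1 and 7 and 2 of 13 on day 28, for NRCWE-001 and NRCWE-002. Of all genes 7.32% and 9.36% had such a p on day 1 and 7.34% and 7.27% on day 28. These shares also stand beside the adaptor and lectin counts above. From 18 to 162 µg 3 of the 13 products were called up for NRCWE-001 on day 1, and 1 of the 15 adaptor and signalling genes for NRCWE-001 on day 28 and 1 of the 23 other lectins for NRCWE-002 on day 1. In the same 3 comparisons 1.13%, 1.34% and 1.40% of all genes were called.

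Markers of cell types were read beside the receptors. On day 1 the mean log2 ratio over 10 neutrophil markers ran from 1.36 to 1.85 in the vehicle group, from 1.60 to 2.80 after 162 µg of NRCWE-001 and from 1.72 to 2.38 after 162 µg of NRCWE-002. Csf3r and Cxcr2, receptors of neutrophils, rose against vehicle with NRCWE-001, by 0.81 ± 0.19 and 0.82 ± 0.18 (limma adjusted p = 0.0212 and 0.0114). These were 2 of 10 markers, beside 0.624% of all genes, and none was called against vehicle with NRCWE-002, beside 0.590%. An unadjusted limma p under 0.05 was found for 7 of 10 with NRCWE-001 and 6 of 10 with NRCWE-002, beside 7.32% and 9.36% of all genes. From 18 to 162 µg on day 1, 1 of the 10 was called up with NRCWE-001 and 2 with NRCWE-002. Of all genes 1.13% and 1.40% were called there. On day 28 the same list ran from 1.37 to 1.79 in the vehicle group, from 1.11 to 1.99 with NRCWE-001 and from 1.21 to 1.91 with NRCWE-002, and none of the 10 was called or had an unadjusted limma p under 0.05.

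Over 10 of 11 markers of monocytes and recruited macrophages the vehicle arrays ran from 0.85 to 1.00 on day 1 and from 0.96 to 1.04 on day 28. At 162 µg the range was 0.92 to 1.60 with NRCWE-001 and 1.15 to 1.51 with NRCWE-002 on day 1. On day 28 the NRCWE-001 arrays read 1.76, 0.77, 1.06, 2.20 and 2.14 and the NRCWE-002 arrays read 0.99, 2.08, 0.88, 2.02 and 1.76, so the NRCWE-001 arrays high for the receptors, replicates 1, 4 and 5, were also high for this list. Likewise the NRCWE-002 arrays highest for each receptor, replicates 2, 4 and 5, were the highest for this list. Of the 10 markers 4 and 5 had an unadjusted limma p under 0.05 on day 1 with NRCWE-001 and NRCWE-002, and 6 with each on day 28. The share of all genes with such a p was 7.32% and 9.36% on day 1 and 7.34% and 7.27% on day 28. Cd14, a co-receptor for lipopolysaccharide, was the only marker of the list called against vehicle at 162 µg and rose on day 1 by 1.31 ± 0.34 and 1.56 ± 0.34 (limma adjusted p = 0.0479 and 0.0107). From 18 to 162 µg called markers numbered 3 of 10, all up, with NRCWE-001 on day 28, and 1, also up, on day 1 with NRCWE-002. Of all genes 1.34% and 1.40% were called there.

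Of 8 listed markers of alveolar macrophages 6 were measured, and their mean on day 1 ran from 3.58 to 4.37 in the vehicle group, from 2.47 to 3.902 with NRCWE-001 and from 3.47 to 4.28 with NRCWE-002. On day 28 it ran from 3.80 to 4.17 in the vehicle group, from 3.24 to 4.16 with NRCWE-001 and from 2.88 to 4.13 with NRCWE-002. On day 1, 4 of 6 had lower means than vehicle with NRCWE-001, 2 of them called, and 3 of 6 with NRCWE-002, 1 of them called, while 2 and 3 had higher means and none of these was called. Of all genes 0.624% and 0.590% were called there. Siglecf, a sialic acid receptor of these cells, fell by 1.00 with each particle on day 1 (limma adjusted p = 0.0383 and 0.0335), and Fabp1 fell by 1.86 with NRCWE-001 (limma adjusted p = 0.0198). An unadjusted limma p under 0.05 was found for 3 of 6 with each particle on day 1. On day 28 it was found for 4 and 3 of 6, and none was called. Of all genes 7.32% and 9.36% had such a p on day 1 and 7.34% and 7.27% on day 28. From 18 to 162 µg 2 of the 6 were called down with NRCWE-001 on day 1, beside 1.13% of all genes, and none in the other such comparisons. Every measured marker of these lists was above background on some arrays. None of the 8 lung tissue, 6 dendritic cell, 4 lymphocyte or 3 heart and liver markers, nor the leukocyte marker Ptprc, was called by limma against vehicle at 162 µg on either day, with at most 1 of each list at an unadjusted p under 0.05 in a comparison. The part of cell numbers in the receptor changes was not tested.

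**Figure D4:**
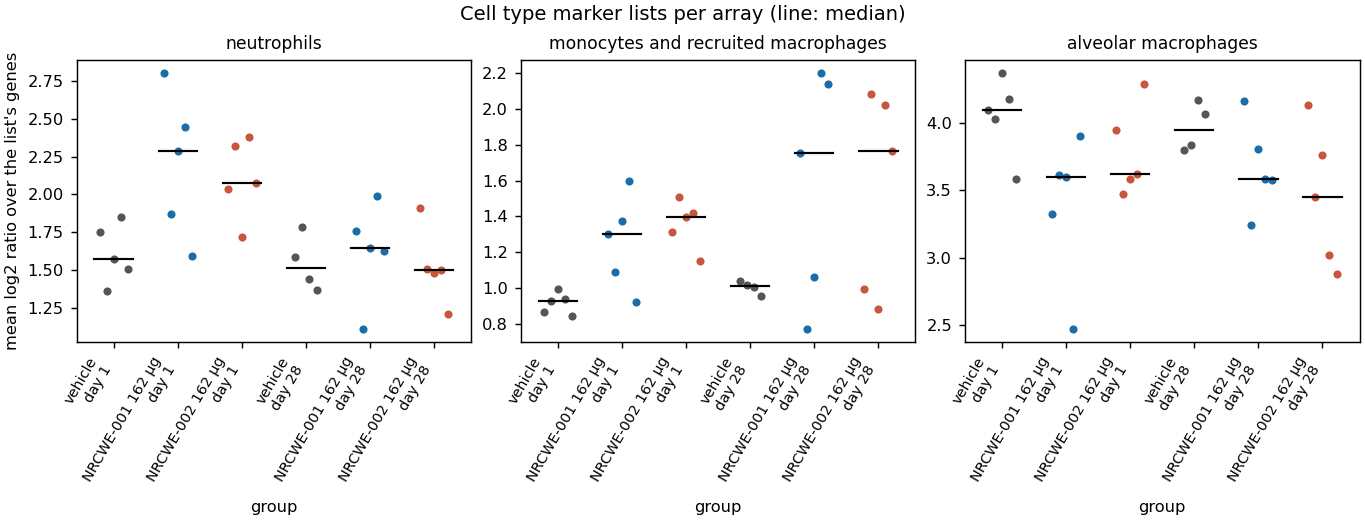
Mean log2 ratio over the measured genes of each cell type marker list (y axis) on each array, for the vehicle groups and the groups that received 162 µg (x axis), with a line at the median. The monocyte list reached 2.20 on day 28 in NRCWE-001 arrays, above the vehicle range of 0.96 to 1.04, and the neutrophil list reached 2.80 on day 1, above the vehicle range of 1.36 to 1.85.

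All 69 arrays showed 60.8% to 87.6% of probes well above background for the lung sample, and no receptor probe was saturated. The median correlation of an array with the others ran from 0.857 to 0.974, and 4 arrays lay under 0.9. One of them, replicate 2 of 162 µg of NRCWE-002 on day 28, belongs to the groups described at 162 µg. Without these 4 arrays, an alternative chosen after seeing the data, Clec4d was called on day 1 as before (limma adjusted p = 0.0146 and 0.0173).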

How the data were processed

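Lung RNA (Cy5) and a common mouse reference RNA (Cy3) were hybridised to 69 two-colour Agilent arrays on 18 slides, scanned on 12 days, with no dye swap. The authors deposited LOWESS-normalized log2 ratios, and the scanner intensity files deposited with them were read per the file headers (Agilent Feature Extraction 11.0.1.1). The deposited log2 ratios correlated with unnormalized red over green at r = 0.918 to 0.994 and had slopes of 1.036 to 1.097 on ratios normalized again from the intensities, which settles their direction and scale. Probes were named through RefSeq accessions (27479 of 41174 matched) and dropped unless the lung channel was well above background on 4 or more arrays. Probes of 1 gene were combined by their median. Group means of all 14 groups were fitted in limma 3.58.1 (R 4.3.3) with 25 contrasts and 4 F-tests, Benjamini-Hochberg adjustment over 17628 genes and a threshold of 0.05. The step had first been tested on simulated data with independent arrays and no slide effect, so that test does not cover arrays sharing a slide. Per the labels each array was 1 mouse, and the number of arrays limits the precision. Members and gene lists were chosen with earlier results of these data known. From each list up to 4 called genes with the largest day 1 changes at 162 µg were named, and for each receptor the 3 most correlated genes. Alternatives were other background corrections and normalizations, probe filters, the brightest probe, slide or scan day as a block, other variance models, fits on the compared groups, leaving out each array and, chosen after seeing the data, leaving out the 4 arrays of lowest correlation.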

Additional observations from a re-analysis of the deposited data

Results flagged for a closer look

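Among 56 groups of a receptor (14 groups for each of 4), 2 held 1 array far from the others, where chance gives about 1 in 20. For Clec4d after 18 µg of NRCWE-002 on day 28, the lowest array read -2.72 and the nearest -2.21, a gap of 0.781 of the group's range. For Clec5a after 18 µg of NRCWE-001 on day 1, the highest array read -0.19 and the nearest -0.48, a gap of 0.753 of the range. In the reported fit without slide, no comparison that called the gene concerned used either group. With slide in the fit Clec5a was called from 18 to 162 µg of NRCWE-001 on day 1, which uses its flagged group. The limma adjusted p was 0.0201 with a fixed term and 0.00754 with a random block. The F-test for NRCWE-001 on day 1 with the random block also called Clec5a and uses that group (limma adjusted p = 0.0206).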

How the results depend on the processing

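Counts of receptors called were compared over 29 comparisons under 13 settings beside the one reported, and 319 of 352 such counts stayed within 1.5 times. The cause of the other 33 was not tested, and they are given next. For 162 µg of NRCWE-001 against vehicle on day 1 (1 receptor called) the count was 2 with slide as a fixed term, 3 with slide as a random block and 0 with the compared groups only. For NRCWE-002 (1) it was 0 with slide as a fixed term and 2 with the compared groups only, and at 54 µg (0) it was 1 in each of these and with slide as a random block. For 162 against 18 µg of NRCWE-001 on day 1 (0) it was 2 with either slide term and 1 with scan day. For NRCWE-002 (1) it was 0 with normexp, either slide term or scan day, 2 without the 4 arrays of low correlation and 3 with the compared groups only. For NRCWE-001 on day 28 (1) it was 2 with processed signals, the stricter filter or the brightest probe and 0 with median centring or the compared groups only. The F-test counts for NRCWE-001 on day 1 (0) were 1 with slide as a fixed term or scan day and 3 with slide as a random block. For NRCWE-002 on day 1 (1) they were 0 with slide as a fixed term and 2 with the compared groups only. For NRCWE-001 on day 28 (1) they were 2 with processed signals, the stricter filter or the brightest probe, and 0 with median centring, the compared groups only or the ordinary F-test.

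With 1 array left out, counts against vehicle ranged from 0 to 2 for NRCWE-001 and 0 to 1 for NRCWE-002 at 162 µg on day 1, and from 0 to 2 for NRCWE-001 on day 28. F-test counts ranged from 0 to 1 for each particle on day 1 and from 0 to 3 for NRCWE-001 on day 28, and 162 against 18 µg counts from 0 to 1 on day 1 for each particle and from 0 to 2 for NRCWE-001 on day 28. Of single changes at 162 µg, only Clec4n with NRCWE-002 on day 28 turned, to -0.28 with processed signals. No paired analysis was possible because the labels share no replicate numbers between groups, other than one through shared slides: arrays were paired only through shared slides, by the slide terms above and the within-slide differences in the report. The reference holds its own level of each receptor, and dim probes of Clec5a limit its fold changes.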
